A study of Mus musculus with 4 samples.

Results

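Irf4, Irf8, Batf, Nfatc1, Bhlhe40, Rel and Nfkbid are transcription factor genes, or in the case of Nfkbid a nuclear cofactor gene, that T cells engage after antigen recognition. They were taken by name from the gene table of the series, where each had 1 row, so the set holds 7 of 32285 features. Their transcripts were followed in 4 single-cell RNA libraries (10x Genomics 3′ chemistry) of CD8 T cells sorted as CD44+CD90.1+ from lymph nodes (tdLN in the labels) of tumour-bearing C57BL/6 mice. In the C6M9 group the labels give GP33 of low affinity, and in the M9 group GP33 of high affinity, where GP33 is a peptide of a viral glycoprotein used as a model antigen. Every mouse carried a tumour implanted 14 days earlier, the same gate was used throughout, and no group without GP33 is part of the data used here. Cells were pooled from 35 mice for C6M9 and 10 for M9. The labels speak of biological duplicates but do not say which mice went into which library. If mice were shared, the spread between the 2 libraries of a group is technical, and so are the errors and p-values built on it. The age and sex of the mice are not in the labels, and the vector or cell that carried GP33 is not named there.

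On GRCm38 (GENCODE M21) all 7 are protein-coding genes. Irf4 (ENSMUSG00000021356) lies at chr13:30749226-30766976 and Irf8 (ENSMUSG00000041515) at chr8:120736358-120756694, both on the plus strand. Batf (ENSMUSG00000034266) lies at chr12:85686669-85709087, Bhlhe40 (ENSMUSG00000030103) at chr6:108660629-108666925 and Nfkbid (ENSMUSG00000036931) at chr7:30421732-30428746, also on the plus strand. Nfatc1 (ENSMUSG00000033016, chr18:80606205-80713071) and Rel (ENSMUSG00000020275, chr11:23736847-23770970) lie on the minus strand.

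IRF4 is induced in proportion to the strength of T cell receptor (TCR) signalling and, with BATF, which has no activation domain of its own, binds composite DNA elements in activated T cells; IRF8 is its closest relative and is best known from B and myeloid cells. NFAT enters the nucleus when calcium activates calcineurin, and Nfatc1 encodes the NFAT protein that is itself induced by this route. Rel encodes c-Rel, the NF-kB subunit most tied to antigen receptors, Nfkbid encodes the nuclear IkB protein IκBNS, and Bhlhe40 encodes a basic helix-loop-helix repressor that TCR signals induce.

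Promoter windows are shown because the genes belong to, or act with, factor families whose motifs can be searched near each start. Each window runs from 250 bases before to 50 after a start site in RefSeq on GRCm38.p6. Windows were found for 5 of the 7 genes; those of Nfatc1 and Bhlhe40 are not shown. Capitals mark matches on either strand to TATAAA, to the cyclic AMP response half-site TGACGT, which AP-1 and CREB family factors bind, and to the NF-kB consensus. TGANTCA (AP-1, in 7.81% of all 32851 promoter windows), CACGTG (E-box, 7.15%) and the interferon response element (GAAA, 2 free bases, GAAA; 3.44%) were searched as well and were not in the windows below. The short NFAT core GGAAA was searched but is not capitalised, since 61.3% of all windows hold it.
Irf4, chr13:30748983-30749282, plus strand: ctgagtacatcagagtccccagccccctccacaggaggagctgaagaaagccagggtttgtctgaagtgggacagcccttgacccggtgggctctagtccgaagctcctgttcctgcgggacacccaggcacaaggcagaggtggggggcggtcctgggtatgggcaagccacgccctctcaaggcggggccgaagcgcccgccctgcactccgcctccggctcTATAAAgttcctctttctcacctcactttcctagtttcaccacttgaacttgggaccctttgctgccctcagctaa
Irf8, chr8:120736108-120736407, plus strand: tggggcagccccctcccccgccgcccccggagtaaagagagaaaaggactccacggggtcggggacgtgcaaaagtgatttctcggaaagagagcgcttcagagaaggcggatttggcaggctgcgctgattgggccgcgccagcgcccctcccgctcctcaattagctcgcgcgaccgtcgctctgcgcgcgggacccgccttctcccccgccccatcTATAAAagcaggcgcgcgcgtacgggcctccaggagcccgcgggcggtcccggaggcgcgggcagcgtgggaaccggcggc
Batf, chr12:85686470-85686769, plus strand: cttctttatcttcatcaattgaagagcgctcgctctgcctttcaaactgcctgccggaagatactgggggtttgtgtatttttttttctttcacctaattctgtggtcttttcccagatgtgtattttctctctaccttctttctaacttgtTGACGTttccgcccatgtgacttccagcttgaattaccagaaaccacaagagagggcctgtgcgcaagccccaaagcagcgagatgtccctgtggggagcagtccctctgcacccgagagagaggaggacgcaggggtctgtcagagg
Rel, chr11:23770920-23771219, minus strand: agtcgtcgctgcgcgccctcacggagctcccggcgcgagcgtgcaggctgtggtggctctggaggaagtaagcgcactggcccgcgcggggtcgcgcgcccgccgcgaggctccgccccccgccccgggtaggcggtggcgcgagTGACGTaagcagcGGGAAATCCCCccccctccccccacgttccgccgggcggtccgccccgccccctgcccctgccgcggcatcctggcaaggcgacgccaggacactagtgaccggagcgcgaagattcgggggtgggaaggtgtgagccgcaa
Nfkbid, chr7:30422156-30422455, plus strand: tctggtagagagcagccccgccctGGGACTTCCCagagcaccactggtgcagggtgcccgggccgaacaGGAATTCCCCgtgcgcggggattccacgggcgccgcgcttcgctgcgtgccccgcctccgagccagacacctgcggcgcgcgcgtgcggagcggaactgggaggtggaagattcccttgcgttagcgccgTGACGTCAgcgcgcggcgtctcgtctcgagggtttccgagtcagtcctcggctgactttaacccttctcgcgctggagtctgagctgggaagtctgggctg

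Both IRF genes had a TATAAA match, at base 225 of the Irf4 window and base 220 of the Irf8 window; 13.6% of all windows hold one. The Rel window had overlapping NF-kB matches from bases 159 and 160, which also contain its GGAAA, and a TGACGT from base 146. The Nfkbid window had NF-kB matches from bases 25 and 70 and a palindrome made of overlapping TGACGT matches from bases 200 and 202. Batf had a TGACGT from base 153. The NF-kB consensus was in 8.46% and TGACGT in 7.51% of all windows. Irf8 and Nfkbid have other annotated starts, whose windows held only GGAAA and are not printed; the Nfkbid window shown was chosen for its matches. Matches describe letters in these windows and are no measure of binding.

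The libraries held 3220 and 1982 cell barcodes for C6M9 replicates 1 and 2, against 4586 and 1325 for M9. Their totals were 73379913 and 65721043 unique molecular identifiers (UMIs) in C6M9, and 79174627 and 33680632 in M9. After filtering, 2888 and 1733 T cells remained in C6M9 and 4100 and 1199 in M9, 9920 in all. Any 2 libraries shared at most 4 barcodes. The labelled cell type held: Cd8a was seen in at least 96% of the cells of each of the 9 T cell clusters, and Cd4 in at most 7.63%. A further cluster, 127 B cell-like cells, was kept apart from them. Depth per cell differed more within groups than between them, with median UMIs of 13999.5 and 21460 in C6M9 and 13217 and 20024 in M9.

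Over all T cells, Rel and Nfatc1 transcripts were lower in C6M9, and the fitted differences of the other 5 genes were also below 0 without passing the test. Sums over cells cannot tell fewer expressing cells from less RNA per cell. Of the 7 genes, 2 were called lower at an adjusted p under 0.05 (edgeR quasi-likelihood test over 13660 genes, Benjamini-Hochberg), and 0 higher; DESeq2 called the same number, and at an unadjusted p under 0.05 edgeR had 5 lower and 0 higher. Among all genes 4.66% were called lower and 1.96% higher, 6.63% in all, and 13.6% were lower and 10.7% higher at an unadjusted p under 0.05. Levels beside each test are UMIs per 1000000 after TMM scaling (CPM).

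Rel was at 47.6 and 49.8 CPM in C6M9, against 89.9 and 70.7 CPM in M9. Both C6M9 libraries lay below both M9 libraries. The log2 difference was -0.72 ± 0.12 (SE, n = 2 libraries per group, adjusted p = 0.00962, edgeR). Nfatc1 was at 76.5 and 79.0 CPM in C6M9, against 105 and 100.2 CPM in M9, a log2 difference of -0.40 ± 0.08 (adjusted p = 0.0220, edgeR). Its groups did not overlap, and the libraries of each group lay close together. Neither gene was called when C6M9 replicate 1 was left out (adjusted p = 0.0913 for Rel and 0.291 for Nfatc1, edgeR), and Nfatc1 was not called without C6M9 replicate 2 (adjusted p = 0.148). Neither passed when no filter on low counts was used (adjusted p = 0.0501 for Rel and 0.0719 for Nfatc1).

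The IRF and BATF genes stood closer together. Irf4 was at 23.9 and 22.0 CPM in C6M9, against 28.1 and 28.8 CPM in M9 (log2 difference -0.31 ± 0.09, adjusted p = 0.0783, edgeR). Irf8 was at 21.3 and 20.6 CPM in C6M9, against 23.9 and 24.3 CPM in M9 (-0.20 ± 0.09, adjusted p = 0.196). Batf was at 70.1 and 65.6 CPM in C6M9, against 81.7 and 70.4 CPM in M9 (-0.17 ± 0.09, adjusted p = 0.323). For each of these 3 genes the C6M9 libraries were the lower pair, yet the difference did not pass the test over all genes. Without cells that held B cell UMIs, Irf4 was called lower (-0.44, adjusted p = 0.0295, edgeR), where 879 of 12660 genes were called. Groups did not overlap for 5 of the 7 genes, all with C6M9 lower; over all genes tested 55.8% did not overlap, and 29.6% did so with C6M9 lower.

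Bhlhe40 had the widest fitted difference and was not called. It was at 15.2 and 31.5 CPM in C6M9, against 92.1 and 28.9 CPM in M9, so M9 replicate 1 stood apart and the groups overlapped (log2 difference -1.39 ± 0.48, adjusted p = 0.125, edgeR). M9 replicate 1 also had the highest Bhlhe40 level of the 4 libraries in 9 of 9 T cell clusters. Without M9 replicate 1 the Bhlhe40 difference shrank to -0.28 (adjusted p = 0.611, edgeR), and without M9 replicate 2 it widened to -1.98 and was called (adjusted p = 0.00762). Nfkbid was at 15.04 and 19.8 CPM in C6M9, against 24.9 and 17.0 CPM in M9, and these groups overlapped too (-0.27 ± 0.19, adjusted p = 0.406). Without M9 replicate 1 the Nfkbid difference changed sign, to 0.07.

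**Figure D1:**
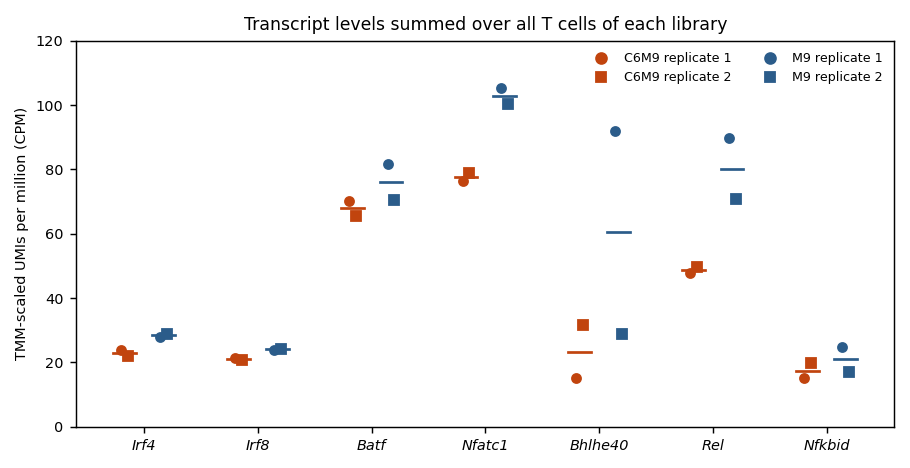
Transcript levels of the 7 genes over all T cells, in TMM-scaled CPM on the vertical axis; each point is a library, circles are replicate 1, squares replicate 2, and bars are group means. The C6M9 points lie below the M9 points for Irf4, Irf8, Batf, Nfatc1 and Rel, whereas 92.1 CPM in M9 replicate 1 carries the M9 mean of Bhlhe40.

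At equal depth the share of cells with at least 1 UMI was lower in both C6M9 libraries than in both M9 libraries for Irf4, Irf8, Nfatc1 and Rel, and for Batf at some depths only. With every cell thinned to 2000 UMIs, which left out 2 and 8 cells in C6M9 and 9 and 5 in M9, Rel was seen in 7.73% to 9.57% of C6M9 cells and 14.2% to 15.7% of M9 cells. Nfatc1 was seen in 12.8% to 13.2% of C6M9 cells and 18.7% to 18.8% of M9 cells, and Irf4 in 3.48% to 3.85% of C6M9 cells and 4.52% to 5.61% of M9 cells. Batf was at 10.2% to 11.5% in C6M9 and 12.98% to 13.9% in M9, and Irf8 at 2.72% to 3.46% in C6M9 and 4.01% to 4.10% in M9. Bhlhe40 (2.50% to 5.16% in C6M9, 4.86% to 15.3% in M9) and Nfkbid (2.74% to 3.94% in C6M9, 2.85% to 4.40% in M9) overlapped. At 4000 UMIs per cell Batf overlapped as well, at 21.8% to 22.2% of C6M9 cells and 21.7% to 23.0% of M9 cells, so that 4 of the 7 genes stayed lower, against 5 at 1000 and at 2000 UMIs. With 2 libraries against 2, an exact permutation test cannot give a p below 0.3333, so no share was tested. The same count over all genes was not made for shares, so these counts cannot be told apart from genes in general. In CPM, 29.6% of all genes tested had C6M9 lower without overlap. At full depth 0 of the 7 genes kept the C6M9 libraries below both M9 libraries (Irf4 20.8% to 26.0% of C6M9 cells, 19.8% to 24.1% of M9 cells), and the Irf4, Irf8, Batf and Nfkbid shares were then higher on average in C6M9.

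No cell type in these libraries is known to lack all 7 genes, so the B cell gene Cd79a was used to gauge free RNA. It was seen in 0.0693% to 0.348% of thinned C6M9 cells and 0.220% to 0.251% of thinned M9 cells. In 60 B cell-like cells with fewer than 5 UMIs of T cell genes, a limit set after the values were seen, it was seen in 95%. Those B cell-like cells had a median of 4633.5 UMIs, against 15308 in T cells. In those 60 cells thinned to 2000 UMIs, Irf8 and Rel were each seen in 35%, Nfatc1 in 11.7%, Irf4 and Nfkbid in 10%, Batf in 5% (95% exact binomial interval 1.04% to 13.9%) and Bhlhe40 in 3.33% (0.406% to 11.5%), intervals that cover counting error only. B cells use several of these genes themselves, so these shares set no floor; the T cell shares of Batf and Bhlhe40 lay mostly within the intervals.

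The 7 genes were not spread evenly over T cell states, and each had its highest mean in one of the pair of clusters joined here as the TCR-activated-like class. Clusters were made without the 7 genes, but from cells whose other genes move with them, so the order of clusters is a description with no test. One cluster of this class was led by Tnfrsf4, which encodes OX40, with Cd83 and Egr3 and 4 of its 10 leading genes among the TCR-activated markers. The other was led by Xcl1, a chemokine gene, and held 2 such markers, Xcl1 and Tnfrsf9; the rest of its leading genes included Srm, a polyamine synthesis gene, and the nucleolar genes Nolc1 and Nop16, so the class name rests on less there. The 5 other classes were progenitor exhausted-like (led by Izumo1r, its only marker among the 10 leading genes), memory-like, interferon-like, effector-like and cycling-like. The TCR-activated-like class had the highest mean of the 6 classes for 7 of 7 genes, also at Leiden resolution 1.0. At resolution 0.3 it was the highest of 5 classes, since memory-like cells then had no class of their own. Levels by cluster are plain UMIs per 1000000, without TMM scaling.

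Irf4 and Nfatc1 were the genes for which each library of the Tnfrsf4-led cluster exceeded every library of every other cluster. In that cluster Irf4 was at 63.0 and 88.7 UMIs per 1000000 in C6M9 and 49.6 and 66.3 in M9. Its mean there was 66.9 ± 16.2 (SD, n = 4 libraries), and the C6M9 values came from 37 and 27 cells. The margin was narrow for Irf4: the Xcl1-led cluster averaged 42.15 ± 5.80, and its highest library was at 48.9. The Tnfrsf4-led mean of Irf4 was 6.08 times that of the progenitor exhausted-like cluster, the lowest at 11 ± 2.73. Nfatc1 was at 177 and 152 UMIs per 1000000 in C6M9 and 161 and 175 in M9 in the Tnfrsf4-led cluster (mean 166 ± 11.7). In the other 8 clusters its means ran between 57.2 in the Gzma-led effector-like cluster and 97.7 in the progenitor exhausted-like cluster. By mean, the progenitor exhausted-like cells were thus lowest for Irf4 and second for Nfatc1. The effector-like cluster led by Klre1 overlapped them between libraries for each gene, at 11.3 ± 4.01 for Irf4 and 92.7 ± 18.5 for Nfatc1.

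Irf8 and Nfkbid were highest in the Xcl1-led cluster instead. Irf8 was at 66.2 and 68.2 UMIs per 1000000 there in C6M9 and 73.0 and 50.03 in M9 (mean 64.4 ± 9.99), 6.41 times its memory-like mean of 10.0 ± 1.55. In the Tnfrsf4-led cluster Irf8 was at 99.9 and 19.4 in C6M9 and 27.2 and 30.3 in M9; the high value of C6M9 replicate 1 came from 65 UMIs in 13 of 37 cells. Nfkbid averaged 44.7 ± 5.77 in the Xcl1-led cluster and 38.5 ± 15.9 in the Tnfrsf4-led cluster, and at most 19.7 in the others. For Nfkbid, 8 of 8 neighbours in the order of clusters overlapped between libraries.

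Rel averaged 119 ± 22.0 UMIs per 1000000 in the Tnfrsf4-led cluster and 104 ± 39.6 in the Xcl1-led cluster, and was lowest in the Gzma-led effector-like cluster at 31.4 ± 7.05. Batf varied least, with a ratio of 1.86 between its highest mean (101.1 ± 8.42, Tnfrsf4-led) and its lowest (54.4 ± 3.41, progenitor exhausted-like). Its second place was the Ccnb2-led cycling-like cluster, at 83.1 ± 6.07. Bhlhe40 averaged 102 ± 62.7 in the Tnfrsf4-led cluster and 16.0 ± 11.7 in memory-like cells, but library spread was so wide that 8 of 8 neighbouring clusters overlapped.

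**Figure D2:**
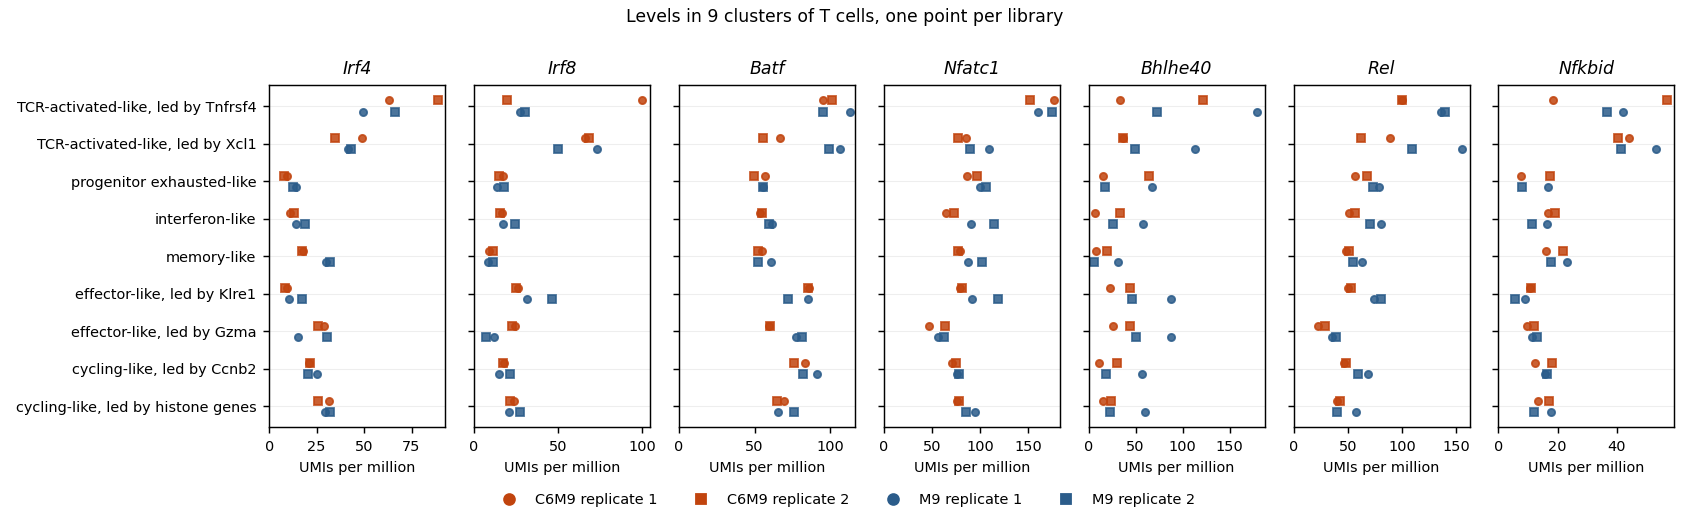
Level of each gene (horizontal axis, UMIs per 1000000, a scale of its own per gene) in 9 T cell clusters (rows), with a point per library; within a row C6M9 lies above M9. Nfatc1 stands out in the Tnfrsf4-led row, where the lowest Irf4 point lies just above the highest Irf4 point of the Xcl1-led row. Irf8 and Nfkbid have their highest means in the Xcl1-led row (64.4 and 44.7), and M9 replicate 1 is the highest Bhlhe40 point in every row.

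The mix of states differed between the groups beside every comparison over all T cells. The TCR-activated-like class made up 4.16% and 5.37% of T cells in C6M9, against 27.6% and 20.6% in M9. Progenitor exhausted-like cells made up 4.85% and 5.37% in C6M9, against 36.1% and 28.0% in M9, and memory-like cells 44.0% and 40.9% in C6M9, against 6.83% and 15.6% in M9. When each library was given the same mix of classes, 0 of the 7 genes were called (limma on log2(CPM + 1); 3 at an unadjusted p under 0.05, DESeq2 not run): Rel differed by -0.45 (adjusted p = 0.0564), Nfatc1 by -0.32 (0.127), Irf4 by -0.31 (0.238), Batf by -0.19 (0.352) and Bhlhe40 by -0.75 (0.472). Irf8 then differed by 0.18 (0.541), the opposite sign, and Nfkbid by -0.00385 (0.995). With each of the 9 clusters held at the same share instead, an alternative added after seeing the data, 0 of the 7 genes were called again (2 at an unadjusted p under 0.05), with Rel at -0.40 (adjusted p = 0.108, limma), Nfatc1 at -0.21 (0.356), Irf4 at -0.21 (0.484) and Batf at -0.11 (0.654). Over all genes 0.82% were called with the same mix of classes and 0.425% with the same mix of clusters. At an unadjusted p under 0.05 (limma) 11.2% and 9.95% were lower, and 442 and 196 of 13660 genes were higher. These levels had no TMM scaling. The median difference over all genes was -0.069 with the mix of classes and -0.074 with the mix of clusters, against -0.015 in the TMM-scaled fit.

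Within classes, 6 of 42 gene and class pairs were called, 5 lower and 1 higher in C6M9. Of these, 5 were in the TCR-activated-like class, where 21.9% of 10293 genes were called, 9.53% lower and 12.4% higher. Rel was at 94.0 and 70.0 CPM in C6M9, against 141 and 123 CPM in M9 (log2 difference -0.70 ± 0.14, adjusted p = 0.00495, edgeR). Batf was at 74.7 and 65.2 CPM in C6M9, against 110 and 92.5 CPM in M9 (-0.55 ± 0.12, adjusted p = 0.0101). Nfatc1 was at 106 and 92.5 CPM in C6M9, against 143 and 138 CPM in M9 (-0.51 ± 0.11, adjusted p = 0.00645). Bhlhe40 was at 37.3 and 52.9 CPM in C6M9, against 157 and 61.4 CPM in M9 (-1.30 ± 0.35, adjusted p = 0.0224), and again M9 replicate 1 lay far above the rest. The groups of these 4 genes did not overlap; in this class 62.6% of all genes did not overlap, 32.1% with C6M9 lower.

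Markers of other cells moved in this class too, and their part in these differences was not tested. The 6 CD4 and regulatory T markers summed to 29.3 and 37.1 UMIs per 1000000 in C6M9, against 101.7 and 69.98 in M9, with 3 of 5 tested called lower. Ctla4 and Il2ra, counted among them, are also on the list of genes tied to IRF4 and BATF in activated CD8 T cells below. The 7 NK and innate lymphoid markers summed to 39.1 and 43.9 in C6M9, against 63.2 and 69.0 in M9, with 2 of 3 tested lower and Ncr1 at 0 throughout. The 15 B cell markers summed to 321 and 284 in C6M9, against 348 and 338 in M9, with 3 lower and 1 higher of 6 tested. The 12 myeloid and dendritic markers summed to 177 and 199.7 in C6M9, against 178 and 159 in M9, with 1 lower and 1 higher of 3 tested.

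Irf8 went the other way in the TCR-activated-like class, at 75.0 and 60.6 CPM in C6M9 and 41.7 and 35.9 CPM in M9 (0.79 ± 0.14, adjusted p = 0.00264, edgeR). Irf4 (-0.04 ± 0.14, adjusted p = 0.857) and Nfkbid (0.04 ± 0.14, 0.884) were not called; their differences changed sign under several of the alternatives. The class had a different makeup in each group: the Tnfrsf4-led cluster held 30.8% and 29.0% of it in C6M9, against 74.6% and 73.3% in M9. In the Xcl1-led cluster alone, tested as an alternative added after seeing the data, Batf (-0.70, adjusted p = 0.00405), Bhlhe40 (-1.19, 0.0112) and Rel (-0.79, 0.0127) were lower in C6M9 (edgeR). Irf8 differed there by 0.13 (adjusted p = 0.763), Nfatc1 by -0.26 (0.376) and Irf4 by 0.04 (0.949). The Tnfrsf4-led cluster had 37 and 27 cells in C6M9, below the minimum of 50, and was not tested. Among all genes in the Xcl1-led cluster 2.47% were called lower and 1.94% higher. Keeping the 7 genes among the clustered genes drew another set of cells: of the TCR-activated-like cells 239 and 159 in C6M9 then came from a cluster led by Srm and Cdca7, with the S phase genes Hells, Mcm3 and Mcm5 and only 2 TCR-activated markers among its 10 leading genes, against 34 and 23 from a Tnfrsf4-led cluster. In those cells Irf4 (-0.58, adjusted p = 0.00430) and Nfkbid (-0.74, 0.00531) were called lower in C6M9 and Irf8 differed by -0.11 (0.492), where 9% of genes were called lower and 9.25% higher. The Irf8, Irf4 and Nfkbid results in this class thus depended on how its cells were drawn. Over the class, leaving out C6M9 replicate 2 ended the calls of Batf, Nfatc1 and Rel (adjusted p = 0.0954, 0.0985 and 0.0521), and leaving out C6M9 replicate 1 that of Bhlhe40 (0.155). Without M9 replicate 1 the Bhlhe40 difference shrank to -0.44. Other settings that ended a call were a mitochondrial limit of 5% for Irf8 (0.35, adjusted p = 0.0749), leaving out cells with B cell UMIs for Nfatc1 (0.101), and DESeq2 (0.238) or no filter on low counts (0.0528) for Bhlhe40.

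In memory-like cells 0.277% of 10846 genes were called, 0.249% lower and 0.0277% higher, and Irf4 was one of those lower. It was at 18.3 and 17.4 CPM in C6M9, against 30.4 and 30.8 CPM in M9, with both libraries of each group close together (-0.78 ± 0.13, adjusted p = 0.0269, edgeR). The call was lost without each library in turn (adjusted p between 0.0552 and 0.160), with DESeq2 (0.0982), with no filter on low counts (0.577), with doublets kept (0.147), with the 7 genes clustered (0.0515) and with a mitochondrial limit of 5% (-0.34, 0.572). Without cells that held B cell UMIs the difference was -1.41 (adjusted p = 0.000592). The other 6 genes were not called in these cells with all 4 libraries; Bhlhe40 was called lower without C6M9 replicate 2 (-1.15, adjusted p = 0.0129, edgeR). In the same cells 2 of 14 TCR signal reporter genes were called lower.

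By the edgeR test over all 4 libraries, with group as its only term, 0 of the 7 genes were called in the other 4 classes. With the replicate number as a block, Bhlhe40 and Rel were called lower in effector-like cells, where 1127 of 11064 genes were called. Bhlhe40 was then also called lower in interferon-like cells, where 139 of 8957 genes were called. With 1 library left out, some were called in effector-like, interferon-like and cycling-like cells, but not in progenitor exhausted-like cells. The number of all genes called changed in those fits as well. In effector-like cells the genes called rose to 2246 without M9 replicate 1, against 5 with all libraries, Rel (-0.75) and Nfatc1 (-0.50) among them. Without M9 replicate 2 there were 549, with Bhlhe40 (-1.28) and Rel (-0.49) lower and Irf4 higher (0.69), and without C6M9 replicate 2 there were 98, with Bhlhe40 lower (-1.39). In interferon-like cells without M9 replicate 2 the differences were -1.57 for Bhlhe40 and -0.57 for Rel. There Nfatc1 differed by -0.64 without M9 replicate 1, and Bhlhe40 by -2.61 without C6M9 replicate 2. In cycling-like cells without M9 replicate 2 the differences were -1.52 for Bhlhe40 and -0.48 for Rel. Among all genes in these classes, with all 4 libraries, 1.28% were called in cycling-like cells (0.643% lower, 0.634% higher) and 0.804% in interferon-like cells (0.648% lower, 0.156% higher). In progenitor exhausted-like cells 0.154% were called (0.082% lower, 0.0718% higher), and in effector-like cells 0.0452% (0.0362% lower, 0.00904% higher). At an unadjusted p under 0.05 there were 7 pairs lower and 0 higher (Bhlhe40 and Rel in cycling-like, effector-like and interferon-like cells, and Nfatc1 in interferon-like cells), of 28 pairs; of all gene and class pairs in these 4 classes 6.01% were lower and 5.89% higher at that threshold. DESeq2 called 0 of the 28. Rel came closest in effector-like cells, at 35.3 and 40.5 CPM in C6M9, against 53.6 and 64.6 CPM in M9 (-0.63 ± 0.15, adjusted p = 0.146, edgeR). The makeup of this class differed between libraries. The Gzma-led cluster, where Rel and Nfatc1 had their lowest means, held 12 of 126 effector-like cells in M9 replicate 2. It held 112 of 444 in M9 replicate 1, and 130 of 473 and 65 of 293 in C6M9. Its part in the effector-like differences, with all libraries or with 1 left out, was not tested. Nfatc1 came closest in interferon-like cells, at 66.1 and 74.6 CPM in C6M9, against 92.4 and 109.8 CPM in M9 (-0.52 ± 0.14, adjusted p = 0.112). The fitted differences of Rel, Nfatc1 and Bhlhe40 were each below 0 in 6 of 6 classes. The same count over all genes is not given here. In progenitor exhausted-like cells, the cells named in the title of the series, the 7 differences ran between -0.55 for Irf4 and 0.11 for Irf8, with Bhlhe40 at 16.1 and 65.9 CPM in C6M9 and 67.4 and 16.9 CPM in M9. A p that misses the threshold does not show that values were alike: these C6M9 libraries held only 140 and 93 such cells.

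Whether the group difference varied between classes was tested for each gene across the 6 classes (edgeR, 11571 genes, 16.5% called). Irf4 (adjusted p = 0.00282), Irf8 (0.0112) and Batf (0.0228) varied. The Irf4 difference ran between -0.78 in memory-like and 0.40 in effector-like cells, the Irf8 difference between -0.29 in interferon-like and 0.79 in TCR-activated-like cells, and the Batf difference between -0.55 in TCR-activated-like and 0.00420 in progenitor exhausted-like cells. Bhlhe40 (adjusted p = 0.101), Rel (0.148), Nfatc1 (0.151) and Nfkbid (0.647) did not pass.

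**Figure D3:**
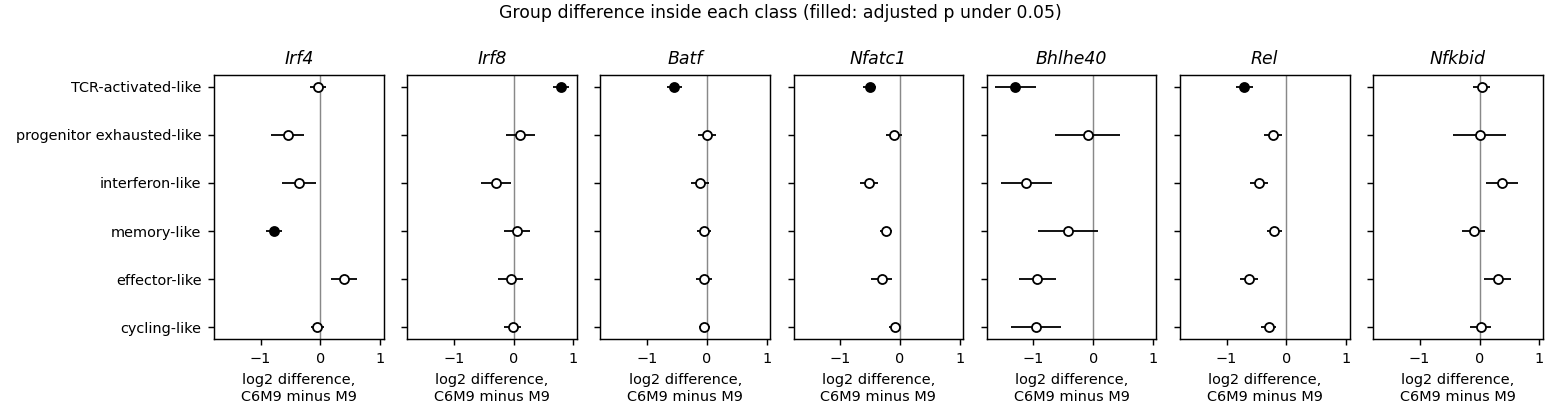
Log2 difference, C6M9 minus M9, of each gene (panels) in 6 classes (rows), with its SE as a bar; filled points passed an adjusted p of 0.05 (edgeR, 2 libraries per group). Filled points are Irf8, Batf, Nfatc1, Bhlhe40 and Rel in TCR-activated-like cells and Irf4 in memory-like cells.

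Taken over all T cells, cells with an Irf4 UMI held UMIs of the other 6 genes more often than cells without one. Among cells thinned to 2000 UMIs, 423 had an Irf4 UMI and 9473 had none. Nfkbid was seen in 9.93% of cells with Irf4, against 3.37% of cells without. Batf was seen in 21.3% against 12.1%, Rel in 18.7% against 11.8%, Irf8 in 5.91% against 3.54%, Bhlhe40 in 12.3% against 8.38%, and Nfatc1 in 20.6% against 15.9%. For Nfkbid the share was higher with Irf4 in each library, at 3.604% and 11.7% in C6M9 and 14.1% and 7.46% in M9, against 2.70% and 3.66% without Irf4 in C6M9 and 3.94% and 2.57% in M9. Within the TCR-activated-like class, Nfkbid was seen in 20.8% of 24 cells with Irf4 in C6M9 and 21.7% of 120 in M9. Without Irf4 it was seen in 5.82% of cells in C6M9 and 6.70% in M9. The excess was not in every class: in memory-like cells Nfkbid was seen in 3.17% of 63 cells with Irf4 in C6M9 and in 0 of 22 in M9, against 3.46% of cells without it in C6M9 and 3.17% in M9. The remaining genes also went both ways outside the TCR-activated-like class. In cycling-like cells Irf8 was seen in 2.08% of cells with Irf4 in C6M9 and 2.17% in M9, against 3.16% and 4.06% without. In memory-like cells Batf was seen in 20.6% with Irf4 in C6M9 and 22.7% in M9, against 8.59% and 10.4% without. Counted together, 3 or more of the 7 genes were seen in 1.07% and 1.39% of thinned C6M9 cells, against 4.62% and 2.51% of thinned M9 cells, and none of the 7 in 63.7% and 61.2% of C6M9 cells, against 46.9% and 53.4% of M9 cells. Within the Tnfrsf4-led cluster 3 or more were seen in 8.11% and 14.8% of C6M9 cells and 12.1% and 9.39% of M9 cells, and these overlapped. The shares given Irf4 rest on pooled cells of 4 libraries that share library and state, and carry no test.

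**Figure D4:**
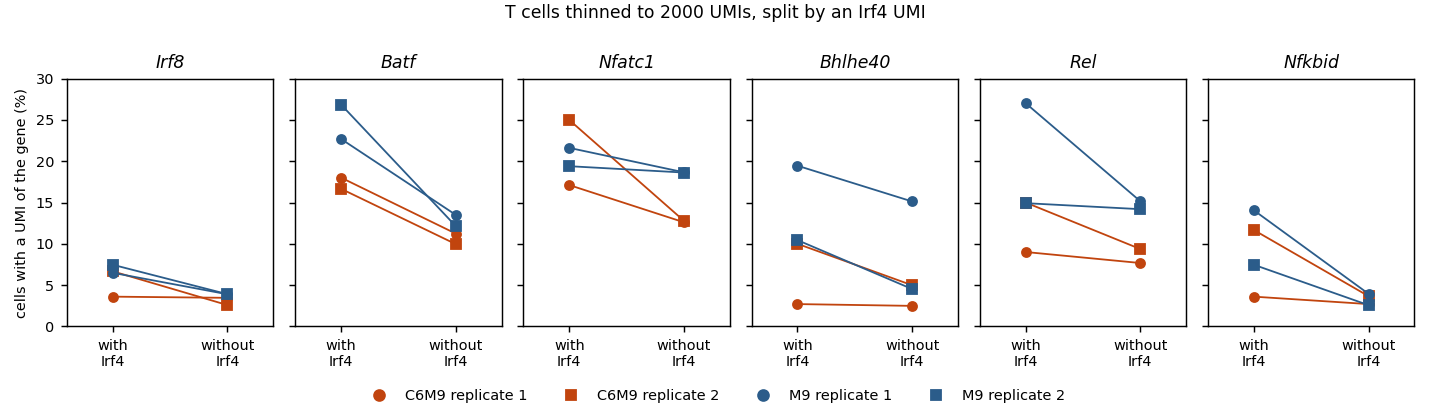
Share of thinned T cells with a UMI of each gene (vertical axis, percent), in cells with and without an Irf4 UMI, with a line per library. For each of the 6 other genes and in each library the share is higher with Irf4 than without, by the fewest percentage points in C6M9 replicate 1 for Irf8 (3.604% with and 3.46% without Irf4).

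Across cells of a library, Pearson's r of log-transformed UMIs between the 21 pairs of members was low, with a median of the pair means of 0.12 (range 0.03 to 0.22), of 0.10 after centring each state on its own mean and of 0.033 at 2000 UMIs per cell, so the value moved with depth. The highest pair was Irf4 with Nfkbid, at 0.22 (range over libraries 0.13 to 0.28). Irf8 with Bhlhe40 had r of -0.00218 in thinned cells, the lowest pair. The genes most like each member among 9394 genes seen in at least 5% of cells of every library were ranked by mean r over 4 libraries. For Irf4 they were Egr3 (0.37), Cd83 (0.28), Rilpl2 (0.28), Tagap (0.27) and Egr2 (0.26), and for Rel Cd83 (0.28), Nr4a3 (0.24), Egr3 (0.24), Nfkbia (0.23) and Tagap (0.22). Nfkbid resembled Egr3 (0.32), Tagap, Myc, Nr4a3 and Nr4a1. Irf8 was most like Tnfrsf9 (0.24), Xcl1, Gadd45b, Ncl and Cd83, Batf like Cd83 (0.21), Rilpl2, Nfkb2, Gapdh and Bcl2a1b, Nfatc1 like Hivep3 (0.19), Cd200, Rilpl2, Egr3 and Nr4a3, and Bhlhe40 like Lag3 (0.23), Cd74, Cd83, Cd82 and Nrp1. Bcl2a1b has close paralogs among which reads could be split.

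Other genes of the same routes were compared by list. Lists were chosen with earlier results of these data known, and medians below are log2 differences over all T cells, beside -0.01 over all genes. Of 14 TCR signal reporter genes 9 were lower and 0 higher (11 and 0 at an unadjusted p under 0.05, 8 called by DESeq2), with a median of -1.04; Tnfrsf4 averaged 3.32 ± 0.0815 CPM in C6M9 and 27.3 ± 12.8 CPM in M9 (SD, n = 2). Egr2 averaged 4.70 ± 0.178 CPM in C6M9 and 17.2 ± 3.63 CPM in M9. Of 16 tested BATF and AP-1 genes, Batf3, which pairs with IRF proteins in dendritic cells, was higher (12.2 ± 3.98 CPM in C6M9 and 2.82 ± 1.47 CPM in M9), and Maf (-1.54) and Jdp2 (-0.60) were lower. The median was -0.12. Of 10 IRF family genes tested, Irf2bp2 (-0.34, adjusted p = 0.0423, edgeR) and Irf2 (-0.33, 0.0495) were lower and the median was -0.03.

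NF-kB genes and inhibitors numbered 20, of which edgeR called 0 in either direction (6 lower at an unadjusted p under 0.05, 1 called by DESeq2; median -0.21); Nfkbia, the inhibitor IkB alpha, averaged 158 ± 40.9 CPM in C6M9 and 211 ± 106 CPM in M9. Of 14 NFAT and calcineurin genes tested, Nfat5, an osmotic stress factor, was lower (-0.64, adjusted p = 0.00554). Of 8 ETS and Ikaros genes 2 were lower, among them Ikzf2 (-0.79). Of 9 basic helix-loop-helix and Id genes 1 was lower, Ahr (-0.81). Among 18 genes tied to IRF4 and BATF in activated CD8 T cells, Lag3 (-1.17), Icos (-0.68) and Pdcd1 (-0.57) were among 4 lower, and Tbx21 (0.57) was higher. The median of these 18 was 0.03, with 9 above 0. At an unadjusted p under 0.05 (edgeR) 8 were lower and 5 higher. Of 17 immediate early and stress genes 1 was lower, Egr1 (-0.99), with a median of -0.11. Medians were 0.01 for the NFAT and calcineurin genes, -0.04 for the ETS and Ikaros genes and -0.04 for the basic helix-loop-helix and Id genes. Within the TCR-activated-like class, where 9.53% of all genes were called lower and 12.4% higher, 6 of the 20 NF-kB genes, 3 of 10 IRF genes, 8 of 14 TCR reporters, 1 of 14 NFAT genes and 1 of 8 ETS and Ikaros genes were lower, with 0 higher in each. Calls went both ways for the basic helix-loop-helix and Id genes (2 lower and 2 higher of 8), the BATF and AP-1 genes (2 lower and 1 higher of 13), the genes tied to IRF4 and BATF (7 lower and 1 higher of 15) and the immediate early genes (1 lower and 1 higher of 16). Most of the TCR reporters, such as Nr4a1, Egr2 and Tnfrsf4, were also among the markers that named the TCR-activated-like class. The share of its Tnfrsf4-led cluster differed between the groups, so the reporter count there cannot be read apart from how the class was drawn.

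Markers of other cells were measured beside these results, and their part in them was not tested. The summed level of 15 B cell markers in T cells was 345 and 386 UMIs per 1000000 in C6M9, against 324 and 319 in M9. Most of this sum was Ighm, which averaged 280 CPM in C6M9 and 198 CPM in M9. Ighm and Ighd were called higher in C6M9, and Cd79a was at 1.16 and 2.50 UMIs per 1000000 in C6M9 and 0.846 and 0.925 in M9. The 6 CD4 and regulatory T markers summed to 34.1 and 46.8 UMIs per 1000000 in C6M9, against 78.6 and 50.4 in M9, with 2 called lower. Ctla4 and Il2ra, counted among them, are also on the list of genes tied to IRF4 and BATF in activated CD8 T cells. The 12 myeloid and dendritic markers summed to 202 and 206 UMIs per 1000000 in C6M9, against 199.6 and 182 in M9, with 7 of the 12 seen in every library and Siglech, Fcgr1 and Cd209a at 0 in all 4; Cd68 was called lower (-0.94). The 7 NK and innate lymphoid markers summed to 60.8 and 59.7 in C6M9, against 63.7 and 67.1 in M9, with 1 called lower. The 10 CD8 T markers summed to 7756 and 8077 in C6M9, against 8723 and 8385 in M9, with Cd44, which is in the sort gate, called lower (-0.48). The share of cells in S, G2 or M phase by marker score was 33.1% and 31.6% in C6M9, against 26.0% and 23.9% in M9. Over cells outside these phases, 4 of the 7 genes were called lower, where 5.28% of 12397 genes were called lower and 3.22% higher, with Irf4 at -0.68 (adjusted p = 0.00387) and Irf8 at -0.44 (0.0307) besides Rel and Nfatc1.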

How the data were processed

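RNA of single CD8 T cells was counted in 4 libraries, 2 per group, so n = 2 throughout. The authors deposited whole UMI counts for each gene in each barcode. The submitters' processing notes name Cell Ranger 6.0.0 and mm10; which annotation was used, and whether intronic reads counted, is not given in the sources used here. The members and gene lists were chosen with earlier results of these data known.

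Of 11113 barcodes, 10324 had 500 genes and 1000 UMIs or more and no more than 10% of UMIs from mitochondrial genes. Scrublet (scanpy 1.11.5) by itself marked at most 0.572% of a library, so the highest scores were left out at 0.8% per 1000 barcodes, 277 cells. Leiden clustering (resolution 0.6, 30 components, 15 neighbours, 2000 variable genes, without the 7 genes) gave clusters named by marker sets; clusters of the same name were merged.

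UMI counts were summed per library and class (at least 50 cells in every library) and tested in R 4.3.3 by the quasi-likelihood test of edgeR 4.0.16 (trended dispersion, TMM, filterByExpr, Benjamini-Hochberg over all genes at 0.05), C6M9 minus M9. The interaction of class and group used 1 fit over class sums with library and class as terms. limma 3.58.1 and DESeq2 1.42.0 served as alternatives. The edgeR step was checked on simulated counts, where the share of false calls exceeded the nominal level in every fit but those of TCR-activated-like and progenitor exhausted-like cells, so adjusted p-values near the threshold may be too small. Alternatives covered scaling, filters, doublets, clustering, the mix of states and each library left out. Free RNA of empty droplets was not analysed here. Intervals cover counting error only. Named genes were the 7, from each list up to 4 called genes with the largest difference among those at 5 CPM or more whose groups did not overlap (otherwise the most abundant), and the 5 genes most like each member; Ahr and Cd79a, outside that rule, were named after their values were seen. The result of 1 gene list is not reported here. Promoter windows came from RefSeq (GRCm38.p6).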

Additional observations from a re-analysis of the deposited data

Results flagged for a closer look

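The C6M9 minus M9 difference of 3 genes varied between the 6 classes by the interaction test (edgeR): Irf4 (adjusted p = 0.00282), Irf8 (0.0112) and Batf (0.0228), where 16.5% of genes passed. For Irf8 the class where it was called higher, TCR-activated-like, was drawn differently in each group. The Tnfrsf4-led cluster was 30.8% and 29.0% of that class in C6M9 and 74.6% and 73.3% in M9, and the part this had in the interaction was not tested.

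The B cell-like cells lie outside the comparisons. In the 60 of them with fewer than 5 UMIs of T cell genes, Irf8 was at 431 UMIs per 1000000 (95% Poisson interval 364 to 506, counting error only), against 22.2 over all T cells, and Rel was at 201 against 64.3. Groups of 2 libraries were too small for a check of single outlying samples.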

How the results depend on the processing

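The count of genes called over all T cells was 905; leaving low counts unfiltered gave 364, a mitochondrial limit of 5% gave 594, and there were 112 with the class-standardised and 58 with the cluster-standardised mix, and between 201 and 1212 when 1 library was left out (201 without C6M9 replicate 1, 301 without C6M9 replicate 2). Of the 7 genes, 2 were called; 0 were with no filter or with either standardised mix, 4 outside S, G2 and M phase, and 0 to 3 when 1 library was left out. Within classes 6 pairs were called, and 4 to 12 when 1 library was left out. Without cells that held B cell UMIs, 3 of the 7 genes were called over all T cells, where 879 of 12660 genes were called. Unthinned, 0 of the 7 genes had a lower share of cells in both C6M9 libraries, against 5 at 2000 UMIs and 4 at 4000 UMIs. That count was not made over all genes. The median r between members was 0.12, and 0.033 in thinned cells. Signs turned for Irf8 over all T cells with the class-standardised (0.18) and cluster-standardised (0.10) mix, and for Nfkbid without M9 replicate 1 (0.0709; range with 1 library left out -0.511 to 0.0709). In TCR-activated-like cells they turned for Irf4 without C6M9 replicate 2 (0.0838) or M9 replicate 2 (0.0760; range with 1 library left out -0.177 to 0.0838), without cells holding B cell UMIs (0.0855) and at resolution 0.3 (0.11), for Irf8 with the 7 genes clustered (-0.11), and for Nfkbid without C6M9 replicate 2 (-0.00883) or M9 replicate 2 (-0.0940; range with 1 library left out -0.0940 to 0.212), with doublets kept (-0.0513), a mitochondrial limit of 5% (-0.45), resolution 1.0 (-0.0633) and the 7 genes clustered (-0.74). The causes were not tested. Of 239 values of single genes under these alternatives, 194 kept their side of the threshold and their sign, 26 lost a call, 5 gained one and 14 changed sign. With 1 library left out, the lone library of a group was taken to vary like the other group. With the replicate number as a block, 1033 genes and 2 of the 7 were called over all T cells and 9 pairs within classes. Genes called were then 1127 in effector-like, 384 in cycling-like and 169 in memory-like cells, against 5, 153 and 30 without the block. Over all T cells, like-numbered libraries deviated with r = -0.042 over genes. Whether they share more than a number was not tested. The members-clustered, single-cluster and cluster-standardised versions were added after seeing the data. Depth limits shares of rare transcripts: Irf4 was in under 6% of thinned cells.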
